A study of Mus musculus with 20 samples.

Results

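Resident and recruited liver macrophages make reactive oxygen with one set of enzymes and remove it with others. The 9 genes described here belong to both sides: Cybb, Cyba, Ncf1 and Ncf4 encode subunits of the phagocyte NADPH oxidase, Gpx1, Gpx3 and Gpx4 are glutathione peroxidases, and Prdx1 and Prdx5 are peroxiredoxins. They were found by gene symbol, 1 row each, among the 59311 rows of the deposited expression table, and all 9 passed the filter on low values. The list was chosen by earlier results of the same data, in which Gpx3 was among the genes with the largest excess in Ly6C hi over Ly6C lo cells. Differences between these subsets are therefore given for the 9 genes as a description, with no test.

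The phagocyte oxidase passes electrons from NADPH across a membrane to oxygen, which yields superoxide. Its membrane core is a heterodimer of the Cybb and Cyba products, and cytosolic factors, among them those encoded by Ncf1 and Ncf4, join it with a Rac GTPase when the cell is activated. Superoxide turns into hydrogen peroxide, which glutathione peroxidases reduce with glutathione and peroxiredoxins reduce with a reactive cysteine. In the injured liver, recruited monocytes that carry much Ly6C are known as the inflammatory and fibrogenic macrophages, and cells with little Ly6C are known for scar resolution.

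The samples were monocyte-derived macrophages (MoMac) of male C57BL/6 mice, 10 to 12 weeks old, which all received CCl4 (0.6 ml/kg, 2 injections a week) for 4 weeks to induce liver fibrosis. Ac-6-FP (acetyl-6-formylpterin, 0.25 mg/kg), a ligand of MR1 that holds back the activation of mucosal-associated invariant T (MAIT) cells, was given to mice 16 to 20 from 2 h before the last CCl4 injection and then daily. Mice 11 to 15 received its vehicle, 1% DMSO in PBS, and livers were taken 2 days after the last CCl4. CD11b+ F4/80+ cells that lacked Ly6G, CD11c and CD3 were sorted by Ly6C. Libraries that share a number were taken as 1 mouse, which gave 1 Ly6C hi and 1 Ly6C lo library (4 groups, n = 5 mice each, 20 libraries). All 4 groups thus come from fibrotic livers.

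Libraries held 5693049 to 18682437 reads on genes, and 5343 to 15766 genes had a value above 0. The lowest number in both cases was the Ly6C lo vehicle library of mouse 13, and results that move with it are given with and without it. Genes detected were fewer in vehicle than in Ac-6-FP libraries by median, 9749 against 13622 in Ly6C hi and 10379 against 14084 in Ly6C lo. Ly6c2, which encodes the sorted Ly6C antigen, ran from 4930.2 to 10012 in Ly6C hi and from 284 to 1014 in Ly6C lo libraries (all values are normalised counts unless stated), as the labels state.

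The Ly6C lo libraries also carried genes of other cells, and the gates named no NK cell marker. Itgax, which encodes the gated-out CD11c, was at 0 in all 10 Ly6C hi libraries. In Ly6C lo it ranged from 0 to 3302 (median 1508). A list of T and NK cell genes, of which 7 were in the table, summed to between 0 and 812 in the Ly6C hi and between 39540.4 and 86329.8 in the Ly6C lo libraries. Its NK genes were behind this: Gzma ranged from 17527 to 38619 and Nkg7 from 15923 to 36198 in Ly6C lo, while the T cell receptor component Cd3e reached 11.1 at most in any library. The 5 dendritic cell genes summed to between 0 and 535 in Ly6C hi and between 7681 and 19377 in Ly6C lo, mostly through Cd209a. Neutrophil genes were mixed, with Mmp8 higher in Ly6C hi (4795 to 11429.9 against 0 to 1171) and Retnlg higher in Ly6C lo (9064 to 117062 against 0 to 504). Hepatocyte genes summed to between 659 and 1590.3 against 2095 and 4283, and the Kupffer cell genes stayed at or below 808 everywhere. These lists move with the subset, and their part in any difference between subsets was not tested. In such bulk samples fewer cells of a type and less RNA per cell cannot be told apart.

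The 3 glutathione peroxidases among the 9 genes are selenoproteins, and what sets them apart from most enzymes is visible in their messages. Each has an in-frame TGA, elsewhere a stop codon, that is read as selenocysteine at the catalytic site. The 27 bases around it (12 on each side, GENCODE vM21 on GRCm38, given 5′ to 3′ with the selenocysteine codon in capitals) are shown because this codon is what makes the 3 genes depend on the selenoprotein synthesis genes counted further on.
Gpx1: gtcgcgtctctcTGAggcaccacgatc
Gpx3: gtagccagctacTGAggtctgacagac
Gpx4: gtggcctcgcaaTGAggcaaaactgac
The codon lies in exon 1 of 2 in Gpx1 (chr9:108339451-108339453), exon 2 of 5 in Gpx3 (chr11:54907256-54907258) and exon 3 of 7 in Gpx4 (chr10:80054737-80054739), each on the plus strand. Gpx1 and Gpx4 share 17 of the 27 bases, Gpx3 and Gpx4 16, and Gpx1 and Gpx3 13.

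Inhibition of MAIT cells was compared with vehicle within each subset, which asks whether the redox genes of either macrophage type respond. None of the 9 genes passed an adjusted p of 0.05 in the limma fit over 17248 genes. In Ly6C hi, 0 of 9 passed beside 0.0754% of all genes tested (13 genes), and 3 of 9 (Cybb, Gpx1 and Prdx1) had an unadjusted p under 0.05, beside 8.73% of all genes. In Ly6C lo, 0 of 9 passed beside 0.0522% of all genes (9 genes), and 1 of 9, Gpx3, had an unadjusted p under 0.05, beside 9.31% of all genes. For the difference in response between the subsets, 0 of 9 passed beside 0% of all genes, and 2 of 9, Cybb and Gpx3, had an unadjusted p under 0.05, beside 4.87% of all genes. edgeR's quasi-likelihood test on recovered reads called 0 of the 17248 genes in each of the 3 comparisons, so its 0 of 9 adds nothing about the members. No gene of the 9 had vehicle and Ac-6-FP values that stood fully apart, beside 1.35% of all genes in Ly6C hi and 1.5% in Ly6C lo. The median log2 change over all genes was 0.35 in Ly6C hi and 0.91 in Ly6C lo, but over the 1760 genes with a mean level of at least 1000 it was −0.0022 and 0.05. Changes of the abundant genes are thus read against a median near 0. Those of Gpx3, Gpx4 and Ncf1, with a lower mean level, are read against the medians over all genes.

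**Figure D1:**
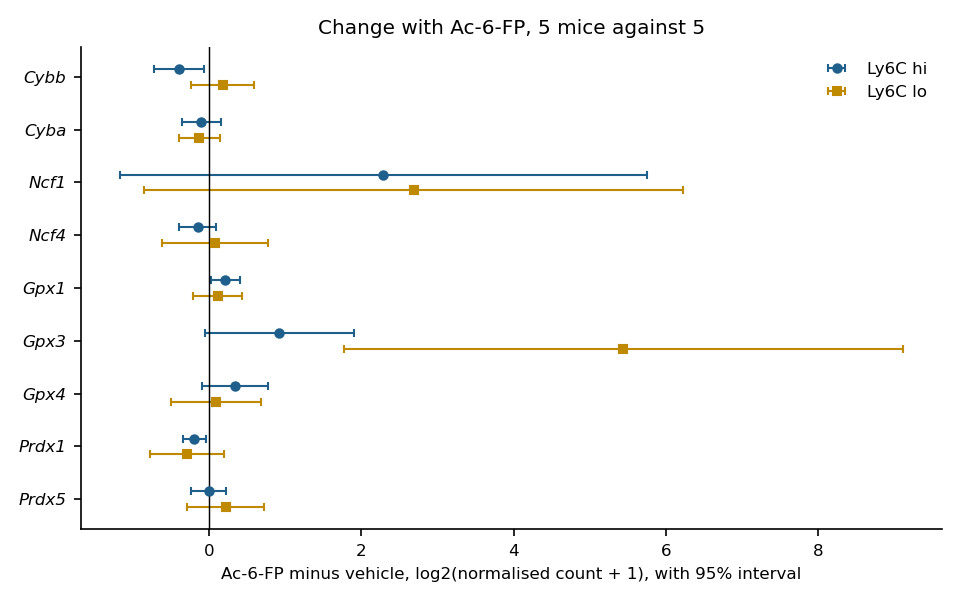
Change with Ac-6-FP of the 9 genes in Ly6C hi (circles) and Ly6C lo (squares) MoMac, as mean Ac-6-FP minus mean vehicle on the log2(normalised count + 1) scale with 95% limma intervals, n = 5 mice a group. Most points lie near 0 with narrow intervals, and Gpx3 in Ly6C lo (5.44) and Ncf1 in both subsets have wide ones.

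Cybb, the catalytic subunit of the oxidase (chrX:9435254-9469324 on mm10), had a lower mean with Ac-6-FP among Ly6C hi MoMac. Vehicle mice 11 to 15 had 19744, 15396, 13615, 17367 and 20979, and Ac-6-FP mice 16 to 20 had 10309, 14690.4, 13994, 14733 and 12289.8. All 5 treated mice lay below the vehicle mean, but 3 of them exceeded the lowest vehicle mouse, so the groups overlapped. The mean was 17420.0 ± 3027 (SD) against 13203 ± 1897, a log2 difference of −0.39 ± 0.15 (SE), with an exact two-sided permutation p of 0.0397 and an adjusted p of 0.543 in limma.

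In Ly6C lo MoMac the Cybb means lay the other way, mostly through 1 mouse. Vehicle libraries had 11966, 14691, 14551, 12392 and 16347, and Ac-6-FP libraries 12482, 14518, 13014, 24054 and 17029.6. Mouse 19 was the highest of all 20 libraries, mouse 20 lay just above the vehicle range and the other treated mice within it. The log2 difference was 0.18 ± 0.18 (SE), with an adjusted p of 0.641, and 0.03 without mouse 19.

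The response of Cybb in Ly6C hi minus that in Ly6C lo was −0.57 ± 0.19 (SE) on the log2 scale, from within-mouse differences. Its unadjusted p was 0.0116 and its exact permutation p 0.0397, while the limma p adjusted over all genes was 0.830. With both libraries of mouse 13 left out the difference was −0.68 with an unadjusted p of 0.00497 and an adjusted p of 0.820.

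Cyba encodes the membrane partner that stabilises the Cybb product (chr8:122424766-122432940), and its log2 changes were small. Ly6C hi vehicle libraries ranged from 46896 to 57295 and Ac-6-FP libraries from 38414 to 54598, with a log2 difference of −0.10 (95% interval −0.36 to 0.15). Ly6C lo vehicle libraries ranged from 43547 to 64209 and Ac-6-FP libraries from 45826 to 58590.1, with a log2 difference of −0.13 (−0.40 to 0.14). With 1 mouse left out these differences ran from −0.15 to −0.02 in Ly6C hi and from −0.23 (without mouse 11) to −0.08 in Ly6C lo. The ratio of Cybb to Cyba within a library does not depend on the size factors. It was 0.337 ± 0.0556 (SD) and 0.277 ± 0.0526 in Ly6C hi vehicle and Ac-6-FP, and 0.244 ± 0.0306 and 0.311 ± 0.0965 in Ly6C lo. Values are not divided by gene length, so this ratio can be compared between groups but is no ratio of molecules.

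Ncf4 encodes a cytosolic factor that binds membrane phosphoinositide (chr15:78244811-78262580). Ly6C hi vehicle mice had 9116, 8319, 8638, 8801 and 10049, and Ac-6-FP mice 9227, 8302, 7714, 9071 and 6431. These overlapped (log2 difference −0.15 ± 0.11, SE, adjusted p 0.687). In Ly6C lo vehicle it ranged from 2763 (mouse 13) to 9816 and in Ac-6-FP from 5585 to 8391, so that the log2 difference of 0.08 turned to −0.21 without mouse 13.

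Ncf1 encodes the organiser of the cytosolic complex (chr5:134220053-134229626) and was the oxidase gene with the fewest reads, 0 to 669 a library. Ly6C hi vehicle mice had 292, 179.8, 0, 55.1 and 486, and Ac-6-FP mice 251, 326, 370.1, 283 and 464. Ly6C lo vehicle mice had 396, 13.6, 0, 123 and 299, and Ac-6-FP mice 224, 104, 483, 333 and 621. The 2 values of 0 came from mouse 13 in both subsets, and treated values lay inside the vehicle range in Ly6C hi and overlapped it in Ly6C lo. The log2 differences were 2.29 (95% interval −1.17 to 5.75) in Ly6C hi and 2.69 (−0.85 to 6.23) in Ly6C lo. Without mouse 13 they were 0.77 and 1.30, and with genes detected in the model 1.13 and 0.56. In GENCODE vM21, 11.1% of the exon bases of Ncf1 lie under exons of Gtf2ird2 on the other strand, so reads may be shared where counting ignored strand.

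**Figure D2:**
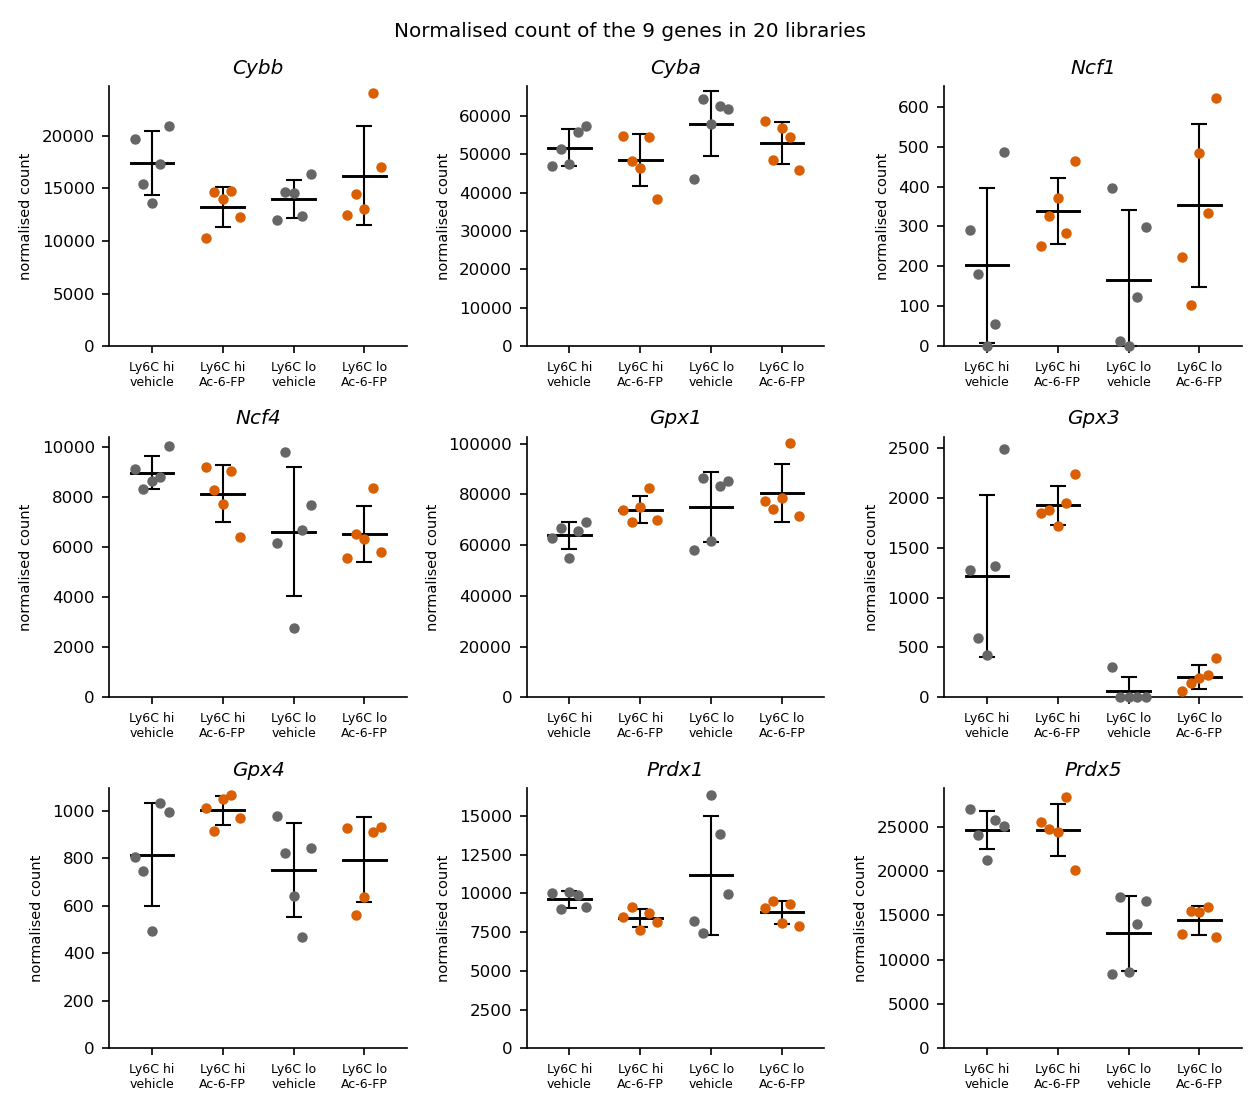
Normalised count (linear axes from 0) of each of the 9 genes in the 20 libraries, by group. Points are mice, horizontal lines group means and bars the SD (cut at 0), n = 5 a group. Gpx3 and Prdx5 separate Ly6C hi from Ly6C lo, and vehicle (grey) and Ac-6-FP (orange) overlap for every gene within a subset.

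Gpx1, the cytosolic glutathione peroxidase (chr9:108339080-108340340), carried 29467 to 118155 reads a library and was well measured. In Ly6C hi, vehicle mice had 62836, 66868, 55072, 65687 and 68972, and Ac-6-FP mice 73788, 68947, 74885, 82507 and 69866. All treated mice lay above the vehicle mean, and only mouse 17 fell just below the highest vehicle value. The mean was 63887 ± 5403 (SD) against 73999 ± 5381, a log2 difference of 0.21 ± 0.084 (SE) with an exact permutation p of 0.0159 and an adjusted p of 0.543 in limma. In Ly6C lo the means were 74959 ± 13910 (SD) and 80473 ± 11450, and the log2 difference of 0.11 ± 0.14 (SE) had an adjusted p of 0.714 and was 0.03 without mouse 11 or mouse 19 and 0.05 without mouse 13.

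Gpx3 encodes the secreted glutathione peroxidase known from plasma (chr11:54902854-54910386). In Ly6C hi, vehicle mice 11 to 15 had 1276, 596, 421, 1317 and 2484. Ac-6-FP mice 16 to 20 had 1851, 1881, 1712, 1946 and 2242. The vehicle mice spread over a range that held all treated values, with a coefficient of variation of 66.6% against 10.2%. The means were 1219 ± 812 (SD) and 1926 ± 196, a ratio of 1.58, and the log2 difference was 0.93 ± 0.43 (SE), with an exact permutation p of 0.0714 and an adjusted p of 0.602, and 0.61 without mouse 13.

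In Ly6C lo, Gpx3 was listed at 308, 2.48, 0, 0 and 0 in vehicle mice 11 to 15, and at 68.1, 143.6, 189, 221 and 396 in Ac-6-FP mice 16 to 20. Every treated mouse had the transcript, and 4 of 5 vehicle mice were at or below the limit that a count of 0 allows (3 reads, or 2.67 to 6.26 normalised counts, counting error only). Mouse 11 alone kept the groups from standing apart. The log2 difference was 5.44 ± 1.63 (SE), with an unadjusted p of 0.00826, an exact permutation p of 0.0397 and an adjusted p of 0.521 in limma. Near 0 this value depends on the pseudocount, and on the linear scale the means were 62.1 ± 138 (SD) and 204 ± 122, a ratio of 3.28.

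That result turned on single libraries. Without mouse 11 the log2 difference was 7.01, the groups stood apart, the exact permutation p was 0.0159 and the adjusted p 0.0198, in a fit that called 103 of the 17248 genes where all mice gave 9. Without mouse 13 it was 4.94, with an exact permutation p of 0.0794 and an adjusted p of 0.640. Genes detected moved with the result: mouse 11, with Gpx3 at 308, had 15723 genes in its Ly6C lo library, and mice 12, 13 and 14 had 10379, 5343 and 9788. Mouse 15 had 13527 genes, within the range of the treated mice (11156 to 15766), and Gpx3 at 0. Of 2803 genes that lay within a factor of 2 of the Gpx3 level in Ly6C lo Ac-6-FP and were seen in all its libraries, 0.749% were at 0 in mouse 11, 18.6% in mouse 12, 62.9% in mouse 13, 24.2% in mouse 14 and 5.49% in mouse 15. With the number of genes detected in the model the log2 difference of Gpx3 in Ly6C lo was 3.81 (adjusted p 0.949). The part of library quality in the Gpx3 values was not tested further. Some lists for other cells were also higher with Ac-6-FP in Ly6C lo, and some were lower. The 5 Kupffer cell genes summed to between 0 and 337 (median 16.0) with vehicle and 187 and 808 (median 356) with Ac-6-FP. Within that list Marco, Vsig4 and Cd5l reached higher values with Ac-6-FP. Clec4f reached 171 with vehicle and 61.5 with Ac-6-FP, and Timd4 reached 49.7 and 6.62. The 5 endothelial cell genes summed to between 0 and 2115 (median 813) and 1008 and 4451 (median 2070.4), and the 4 B cell genes to between 0 and 778 and 766 and 1131. Medians were lower with Ac-6-FP for the dendritic cell genes (17282 with vehicle, 11294 with Ac-6-FP). The same held for the T and NK cell genes (56111 and 53371) and the erythroid genes (2618 and 983). They were slightly higher for the neutrophil (38389 and 43615) and hepatocyte genes (2754 and 2898). The part of these lists in the Gpx3 values was not tested.

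**Figure D3:**
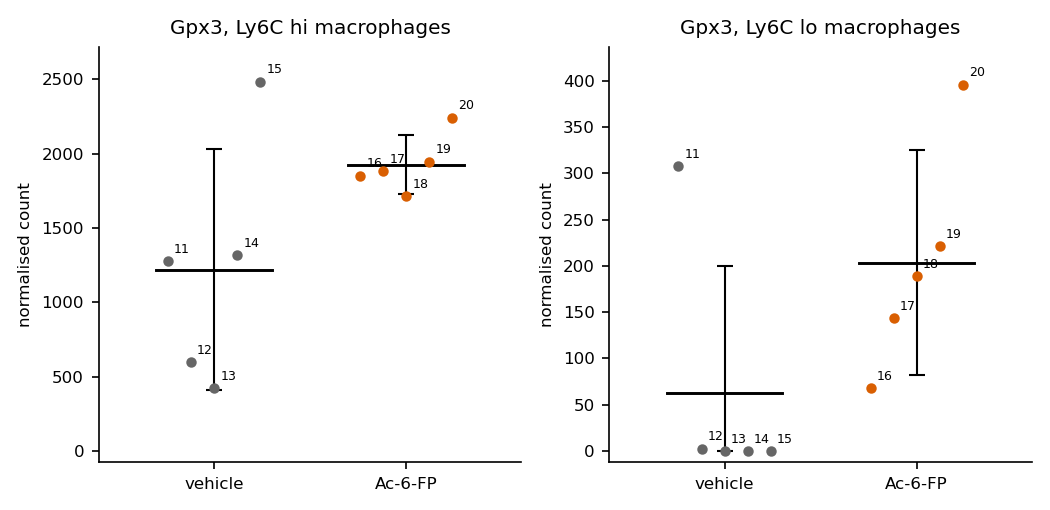
Normalised count of Gpx3 in each library of Ly6C hi (left) and Ly6C lo (right) MoMac, on separate linear axes, with points labelled by mouse, lines for the mean and bars for the SD (cut at 0), n = 5 a group. In Ly6C hi the vehicle mice spread from 421 to 2484 around treated mice at 1712 to 2242. In Ly6C lo 4 of 5 vehicle mice sit at or near 0.

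**Figure D4:**
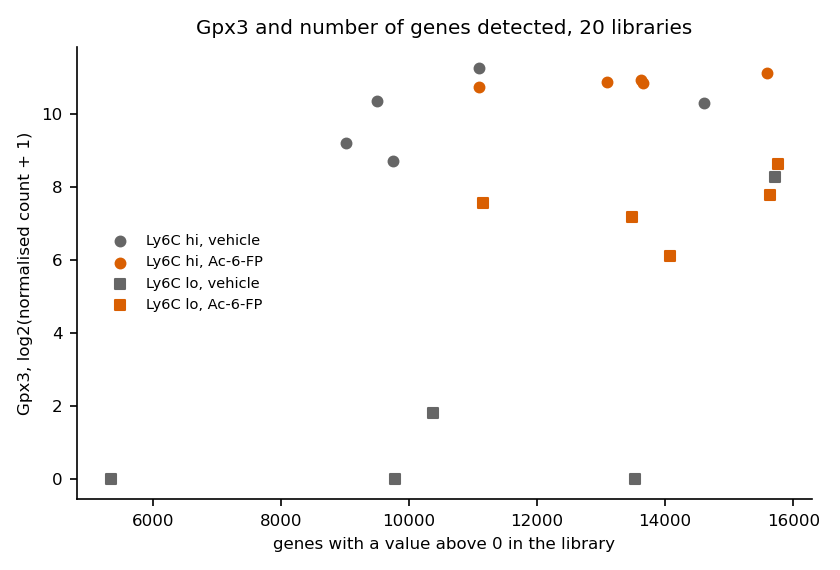
Gpx3 on the log2(normalised count + 1) scale against genes detected, for the 20 libraries. Ly6C hi libraries (circles) stay high at every number of genes, and among Ly6C lo libraries (squares) the 4 low values belong to vehicle mice, 3 of which had 5343 to 10379 genes.

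The response of Gpx3 in Ly6C hi minus that in Ly6C lo was −4.52 ± 1.52 (SE) on the log2 scale, with an exact permutation p of 0.0476 and an adjusted p of 0.830. With both libraries of mouse 13 left out it was −4.33 (adjusted p 0.820), and with both of mouse 11 left out it was −5.997 (adjusted p 0.184). It was −6.59 with a pseudocount of 0.1 and −2.24 with 10, so its size depends on the pseudocount. On the linear scale the ratio of means, Ac-6-FP over vehicle, was 1.58 in Ly6C hi and 3.28 in Ly6C lo.

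Gpx4 reduces lipid hydroperoxides within membranes and so guards against ferroptosis (chr10:80047166-80056439). In Ly6C hi, vehicle mice had 806, 745, 495, 1033 and 997, and Ac-6-FP mice 1012, 916, 1049, 1066 and 969. All treated mice lay above the vehicle mean, 2 of them above every vehicle mouse. The log2 difference was 0.34 (95% interval −0.09 to 0.77), close to the median of 0.35 over all genes, and 0.17 without mouse 13. In Ly6C lo, the ranges were 469 to 978 and 562 to 930.4, and the log2 difference was 0.09 (−0.50 to 0.68), or 0.05 without mouse 13. A processed pseudogene, Gpx4-ps2, is annotated, and how reads with several matches were counted is not given in the sources used here, so the Gpx4 level is uncertain.

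Prdx1, an abundant cytosolic peroxiredoxin (chr4:116685597-116700820), had a lower mean with Ac-6-FP in Ly6C hi. Vehicle mice had 10016, 8979, 10107, 9890.4 and 9108, and Ac-6-FP mice 8469.5, 9151, 7611, 8749 and 8156. Only mouse 17 reached into the vehicle range. The means were 9620.0 ± 534 (SD) and 8427 ± 585, a log2 difference of −0.19 ± 0.067 (SE) with an exact permutation p of 0.0238 and an adjusted p of 0.543. In Ly6C lo, vehicle mice ranged from 7424 to 16360.3 (mouse 13) and treated mice from 7906 to 9516, with a log2 difference of −0.28 ± 0.22 (SE) and −0.13 without mouse 13.

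Prdx5, a peroxiredoxin of mitochondria, peroxisomes and cytosol (chr19:6906697-6910106), had the smallest change in Ly6C hi. Vehicle mice had 27009.6, 24084, 21263, 25774 and 25099, and treated mice 25588, 24754, 24379, 28393 and 20147, with a log2 difference of −0.0037 (95% interval −0.24 to 0.23). In Ly6C lo the means were 12969 ± 4224 (SD) and 14463 ± 1615, with a log2 difference of 0.22 (−0.29 to 0.72), or 0.09 without mouse 13. Exons of Trmt112 on the other strand cover 19.1% of the Prdx5 exon bases.

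The 27 exact tests of the 9 genes (smallest p possible 0.00794, 5 mice against 5) are unadjusted. The p-values compare mice, since each library came from 1 mouse.

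Between the subsets Gpx3 had the largest difference of the 9 and Prdx5 the next. These values chose the list in part and are given without a test. Gpx3 was higher in Ly6C hi in 10 of 10 mice, at 1573 ± 670.3 (SD, n = 10) against 133 ± 143, a ratio of means of 11.8, and no Ly6C lo library (highest 396) reached the lowest Ly6C hi library (421). In Ac-6-FP mice alone, where no library was at 0, the ratio of means was 9.46, and within a mouse the log2 difference ran from 2.50 to 4.74. In vehicle mice it ran from 2.05 to 11.28, the higher values being those of libraries at 0.

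Prdx5 was also higher in Ly6C hi in 10 of 10 mice, at 24649 ± 2451 (SD) against 13716 ± 3116, a ratio of 1.80, with every Ly6C hi library above every Ly6C lo library (lowest 20147, highest 17119.5). The within-mouse log2 difference was 0.88 ± 0.36 (SD) and ran from 0.49 to 1.68. Without mouse 13 the mean log2 difference was 5.37 for Gpx3 and 0.83 for Prdx5. So 2 of 9 genes had ranges that stood apart, beside 1.4% of all genes tested, a share from which nothing is read here because the list was chosen with this contrast known.

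The other 7 overlapped between the subsets. Ncf4 was higher in Ly6C hi in 9 of 10 mice by a mean log2 difference of 0.44, or 0.30 without mouse 13. Gpx4 was higher in 7 of 10 (0.24). Gpx1 was lower in Ly6C hi in 9 of 10 mice (−0.16) and Cyba in 8 of 10 (−0.14), although both signs turned under quantile normalization. Cybb (0.02) and Prdx1 (−0.10) were mixed, and Ncf1 was higher in 4 mice, lower in 5 and at 0 in both libraries of mouse 13. By treatment, Cybb was 0.31 in vehicle and −0.27 in Ac-6-FP mice, Ncf4 0.55 and 0.32, and Ncf1 0.55 and 0.15. The mean for Gpx3 was 5.71 on the log2(normalised count + 1) scale. That mean rests on the Ly6C lo vehicle libraries at 0: it was 7.97 in vehicle and 3.45 in Ac-6-FP mice, and 6.75 and 4.49 over all mice with a pseudocount of 0.1 and 10.

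**Figure D5:**
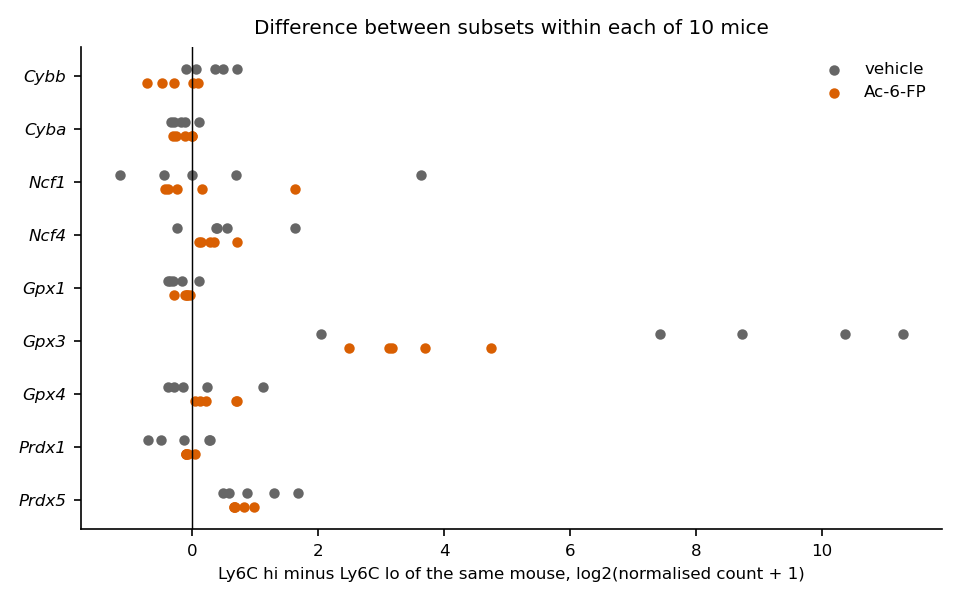
Ly6C hi minus Ly6C lo within each mouse on the log2(normalised count + 1) scale, for the 9 genes, with vehicle mice in grey and Ac-6-FP mice in orange. All 10 mice lie to the right of 0 for Gpx3 (2.05 to 11.28) and Prdx5 (0.49 to 1.68).

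By the mean over 5 mice the groups ordered for Gpx3 as Ly6C hi Ac-6-FP, Ly6C hi vehicle, Ly6C lo Ac-6-FP and Ly6C lo vehicle, and only the middle pair did not overlap. For Prdx5 both Ly6C hi groups (24652 and 24646) came before Ly6C lo Ac-6-FP and vehicle. For Cybb the order was Ly6C hi vehicle, Ly6C lo Ac-6-FP, Ly6C lo vehicle and Ly6C hi Ac-6-FP, and each neighbour overlapped the next. Gpx1 was highest in Ly6C lo Ac-6-FP and lowest in Ly6C hi vehicle, with overlap between all neighbours in that order.

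The rest of the redox system was read from 8 lists of 50 genes (other oxidase genes, other glutathione peroxidases and peroxiredoxins, glutathione synthesis, thioredoxin, superoxide dismutases and catalase, the NRF2 pathway and selenoprotein synthesis). Of these, 49 were in the table and 36 had values high enough to test. With Ac-6-FP, 0 of 36 passed in limma in Ly6C hi, 0 in Ly6C lo and 0 for the difference in response, with 1, 4 and 2 at an unadjusted p under 0.05, beside the 8.73%, 9.31% and 4.87% of all genes. The median of the 36 log2 differences was 0.03 for Ly6C hi cells, beside 0.35 over all genes, and 0.68 for Ly6C lo cells, beside 0.91. The 6 selenoprotein synthesis genes, on which Gpx1, Gpx3 and Gpx4 depend, had 4 positive and 2 negative point estimates in Ly6C hi and 3 of each in Ly6C lo.

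Between the subsets, 3 of the 36 were higher and 2 lower in Ly6C hi, beside 5.22% of all genes tested called in either direction (900 genes). Glrx, glutaredoxin, which reduces glutathione-bound proteins, was higher in Ly6C hi in 9 of 10 mice (lowest, median and highest 4621, 6348 and 7084 in Ly6C hi, and 776, 2000 and 6860 in Ly6C lo), with a log2 difference of 1.48 ± 0.22 (SE) and an adjusted p of 0.00179 in limma. It kept an adjusted p below 0.05 with each mouse left out and in edgeR. Prdx6, a peroxiredoxin with phospholipase activity, had 4367, 6810 and 8668 against 1486, 3939 and 5861 (log2 difference 0.85 ± 0.20, adjusted p 0.0278). Sod1, which turns superoxide into hydrogen peroxide in the cytosol, was higher in 10 of 10 mice, 1209, 1614 and 2101 against 675, 970 and 1457 (0.77 ± 0.20, adjusted p 0.0445). For both, leaving out 1 mouse at a time kept the call in 3 of 10 fits, with adjusted p-values of 0.0159 to 0.0963 and 0.0236 to 0.1004, and edgeR gave 0.0996 and 0.119.

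Gpx8, a peroxidase of the endoplasmic reticulum, was at 0 in all 10 Ly6C hi libraries and ranged from 0 to 218 with a median of 135 in Ly6C lo. Its mean was at least 44.9-fold higher in Ly6C lo, with 3 reads taken as the limit in each Ly6C hi library, and edgeR did not call it (adjusted p 0.211). It passed the filter on low values through the Ly6C lo groups alone, so its call is given as part of the count and not as support. Slc7a11, the cystine importer that feeds glutathione synthesis, had 0, 1.69 and 139 in Ly6C hi and 0, 162 and 362 in Ly6C lo (log2 difference −4.12 ± 1.00, adjusted p 0.0355 in limma and 0.315 in edgeR), and kept the call in 4 of 10 fits with 1 mouse left out. Both low genes were higher in the subset whose libraries carried the NK and dendritic cell genes given above.

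The Rac genes and Sod2 did not pass with all mice. Rac2, the Rac form of blood cells, had 2301, 4796 and 6123 in Ly6C hi and 1684, 6969 and 8938 in Ly6C lo (adjusted p 0.117). Its Ly6C lo values with Ac-6-FP (6755 to 8938) lay, in 4 of 5 mice, above all of those with vehicle (1684 in mouse 13 to 7184). That log2 difference was 0.99 (adjusted p 0.528), and its value without mouse 13 is not given here. Without mouse 13, Rac2 differed between the subsets by −0.42 with an adjusted p of 0.0261. Of the 10 fits with 1 mouse left out this was the only 1 to call it (0.0261 to 0.217), and edgeR gave 0.556. Rac1 had 445, 1225 and 4325 against 599, 1010 and 2633 (adjusted p 0.947). Sod2, the mitochondrial dismutase, had 2571, 3451 and 4903 against 3095, 4927 and 7728 (adjusted p 0.124, and 0.0375 to 0.266 with 1 mouse left out).

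The 5 genes with a pattern most like that of Gpx3 over the 20 libraries, by Pearson r of log2 values, were Galns (0.964) and Psap (0.901), which encode a lysosomal enzyme and a lysosomal protein precursor, Lgals3 (0.930), which encodes galectin-3, Tmem101 (0.925) and B3gnt8 (0.905). Within the 10 Ly6C lo libraries r was 0.974 for Galns, 0.864 for Lgals3, 0.869 for Psap, 0.935 for B3gnt8 and 0.971 for Tmem101. Within the 10 Ly6C hi libraries it was 0.602, 0.742, 0.847, 0.363 and −0.677 in the same order. For Cybb the highest values were lower, 0.768 for Lig4 and 0.727 for Api5, with 3 rows that have no symbol between them (0.732 to 0.755). These are descriptions over libraries that share depth and subset, and they depend on the measure: by Spearman rank 0 of the 5 stayed nearest to Gpx3 and 1 of the 5 to Cybb.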

How the data were processed

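RNA of sorted Ly6C hi and Ly6C lo MoMac from 10 mice was sequenced in 20 libraries. The authors used a kit for small amounts of RNA and 75-base reads, which they aligned with STAR 2.4.0 to mm10. They counted reads on constitutive regions of FAST DB genes. The deposited values are signal values, gene counts divided by 1 DESeq2 size factor per library, and are called normalised counts here. They are linear and not divided by gene length.

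Values were read in Python 3.11.15 (scipy 1.17.1). They are multiples of 1 step per library, which gave whole reads for 99.93% of values above 0 within a tolerance of 0.006 in 19 libraries. The Ly6C hi library of mouse 15, whose step is close to 1, was left out of the count test.

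limma 3.58.1 in R 4.3.3 was fitted to log2(normalised count + 1) of the 17248 genes with a mean of at least 10 in 1 or more groups, and p-values were adjusted by Benjamini-Hochberg over all of them, so every adjusted p is limma's unless edgeR 4.0.16 is named. The subsets were compared through within-mouse differences, because both libraries of a number come from 1 mouse by the labels. Same-mouse residuals correlated at a median of only 0.0338. Exact permutation tests were two-sided. The fits were also run on simulated data with planted changes. That simulation built in no difference in genes detected between libraries. It thus does not cover genes with values at 0 in some libraries, such as Gpx3.

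Members, gene lists and markers were chosen with earlier results of these data known. Named genes are the 9 members, list genes past the threshold in any comparison, Rac1, Rac2 and Sod2, the 5 nearest genes of Gpx3 and of Cybb, and markers. A result on 1 further named gene is not reported here. Alternatives were other pseudocounts and filters, quantile normalization, genes detected as a covariate, edgeR, no replicate block, the study's paired criterion (unadjusted p and fold), and each mouse left out.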

Additional observations from a re-analysis of the deposited data

Results flagged for a closer look

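In 36 groups of 5 libraries (9 genes in 4 groups), 2 held a library far from the other 4 by Dixon's test, and chance alone flags about 1 group in 20. Gpx3 in Ly6C lo vehicle mouse 11 was at 308.09 where the next value was 2.48, and with that library left out Gpx3 was the only 1 of the 9 genes to pass for Ac-6-FP in Ly6C lo, where calls over all 17248 genes rose from 9 to 103. Gpx1 in Ly6C lo Ac-6-FP mouse 19 was at 100330.43, with the other 4 between 71619 and 78740.6, and without it the log2 difference of Gpx1 in Ly6C lo was 0.03 in place of 0.11.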

How the results depend on the processing

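Genes called with Ac-6-FP moved with most settings. In Ly6C hi, 13 became 5 with no filter, 4 with the minimum group mean raised to 100, and 0 with quantile normalization, with genes detected as a covariate and with edgeR, and ranged from 0 to 133 with 1 mouse left out (133 without mouse 11). In Ly6C lo, 9 became 2 with a pseudocount of 10, no filter, the minimum of 100 or the covariate, 0 with quantile normalization or edgeR, and 0 to 103 with 1 mouse left out (103 without mouse 11). For the difference in response, 0 became 2 with the minimum of 100, 1 with quantile normalization, 3 with no replicate block and 0 to 4 with 1 mouse left out. The study's p and fold thresholds, with the vehicle mice taken as a mean and the gene filter used here in place of the study's own, gave 4185 of 17248 genes, or 3465 without the Ly6C lo vehicle library of mouse 13 (this, and leaving 1 library out of edgeR, were chosen after seeing the data). Beside these shares of all genes, it called 1 of the 9, Gpx3 (−4.52), and 2 without that library, Gpx3 (−4.01) and Cybb (−0.59), and 8 and 6 list genes. Between subsets, 900 became 1848 with the covariate and 392 with edgeR, and the 5 list genes became 3 with no filter, 8 with the covariate, 1 with edgeR and 2 to 6 with 1 mouse left out. For Ac-6-FP in Ly6C lo, 0 to 1 of the members passed with 1 mouse left out (Gpx3, 7.01 without mouse 11). Without the replicate block Slc7a11 had an adjusted p of 0.0570 between subsets and lost its call, Prdx4 gained one (0.0392, from 0.0698 with the block), and no call of a member changed. Prdx4 was higher in Ly6C hi in 10 of 10 mice (log2 difference 2.66). It was also called with the covariate (adjusted p 0.00114) and with quantile normalization (0.00799). With 1 mouse left out it was called in 1 of 10 fits (0.00711, without mouse 13), and edgeR gave 0.227.

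Small log2 differences changed sign, and ranges below are over fits with 1 mouse left out. With Ac-6-FP these were Prdx5 in Ly6C hi (0.003003 in edgeR, −0.05682 to 0.06691), Ncf4 in Ly6C lo (−0.2111 with the covariate, −0.06599 in edgeR, −0.2095 to 0.2476) and Gpx4 in Ly6C lo (−0.09254 with quantile normalization, −0.1518 with the covariate, −0.0646 to 0.2097). In the difference in response they were Ncf1 (0.2134 with quantile normalization, −0.8202 to 0.3719), Ncf4 (−0.4244 to 0.04626), Prdx1 (−0.04307 to 0.2011) and Cyba (−0.01809 to 0.08994). By the study's criterion without the Ly6C lo vehicle library of mouse 13 they were Ncf1 (0.9865), Ncf4 (0.0597) and Prdx1 (−0.06133). Between subsets they were Cyba (0.251) and Gpx1 (0.299) with quantile normalization, Cybb (−0.03088 to 0.07599) and Ncf1 (−0.03424 to 0.5618). The causes were not tested. Over the same settings Gpx3 stayed positive with Ac-6-FP, from 0.53 to 1.25 in Ly6C hi and from 1.65 to 7.51 in Ly6C lo.

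Reads limit the low genes: a value of 0 allows 3 reads, and Ncf1 and Gpx3 had 0 in some vehicle libraries. The 95% intervals of Ncf1 span several log2 units.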
